A study of Mus musculus with 6 samples.

Results

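WNT ligands, their receptors and the secreted proteins that hold them in check were examined in bone marrow MSCs by RNA-Seq. The members were the genes whose symbols name WNT ligands, Frizzled receptors, secreted Frizzled-related proteins, Dickkopf proteins, R-spondins and a fixed set of co-receptors, antagonists and pathway regulators, 58 of the 56980 genes in the deposited table. MSCs are marrow stromal cells that stick to plastic and that can become bone-forming osteoblasts or fat-storing adipocytes. All 6 samples came from female mice that underwent OVX, surgical removal of the ovaries that depletes estrogen, at 8 weeks of age, and that had their own gut microbiota depleted with antibiotics before FMT, the daily gavage of donor feces for 8 weeks. In the FMT-Ctrl group (TranspCtrl in the study, 3 samples) the donors were sedentary osteoporotic OVX mice, and in the FMT-Exer group (TranspExer in the study, 3 samples) the donors were osteoporotic OVX mice that had run on a treadmill. The strain and the number of animals behind each sample are not given in the sources used here, so p-values measure the spread between these samples. Marrow flushed from femurs and tibias was kept in culture for 7 days with PBS washes, and the sources used here describe no sorting step.

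WNT proteins are lipid-modified signals that act over short distances. A WNT bound to a Frizzled receptor and to LRP5 or LRP6 keeps β-catenin from being degraded, and β-catenin then acts with TCF and LEF factors on target genes such as *Axin2*. R-spondins, bound by LGR receptors, raise the signal by removing the ligases ZNRF3 and RNF43, which otherwise clear Frizzled from the cell surface, while SFRP, DKK, WIF1 and sclerostin lower it. In bone, this pathway is known for directing marrow stromal progenitors toward osteoblasts and away from adipocytes, and for the high and low bone mass caused by changes in *LRP5*.

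Total counts per sample ranged from 17647638 to 21319166, at which 3 counts equalled between 0.139 and 0.174 CPM (counts scaled to a common library depth with TMM factors), a floor that covers counting error only. Of the 15190 genes that passed the low-count filter of edgeR, 2523 were higher and 2361 lower in FMT-Exer at an adjusted p-value of 0.05, or 32.2% in all (16.6% higher and 15.5% lower). With scaling by library size only, that split was 2013 higher and 2962 lower, and with upper-quartile factors it was 2052 and 2901. FMT-Ctrl replicate 1 stood apart, with a distance in log2 CPM of 60.2 and 62.8 to the other FMT-Ctrl samples, which were 37 apart, and of 42.8 to 43.9 among FMT-Exer samples. The WNT members shared in this, since 30 of the 39 tested were lower in FMT-Ctrl replicate 1 than in both other FMT-Ctrl samples, against 45.1% of all genes tested, and results that turn on this library are given with and without it. Stromal markers were present, with *Cxcl12* at 1002.8 to 1445.8 CPM, but so was *Ptprc*, the CD45 gene of blood cells, at 270.4 to 302.9 CPM, so hematopoietic RNA was also present.

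Of the 58 members, 39 passed the filter and were tested, and 18 of these were past the test, 7 higher and 11 lower in FMT-Exer. These shares, 17.9% higher and 28.2% lower, stand beside the background of 16.6% and 15.5% over all genes. Of the 18, 8 were DEGs, which also had an absolute fold change of at least 2, with *Wnt4* and *Fzd6* upregulated and *Wnt10b*, *Wnt16*, *Sfrp1*, *Dkk3*, *Wif1* and *Lgr5* downregulated. Over all genes, 8.78% were DEGs (3.5% upregulated and 5.28% downregulated). The median log2 fold change was -0.09 for the members and -0.02 for all genes, and the median absolute log2 fold change was 0.59 and 0.29. *Wnt16* and *Wif1* passed the filter through the FMT-Ctrl group alone, so a member of this kind had to be lower in FMT-Exer. The groups did not overlap for 10 members higher and 12 lower in FMT-Exer, where 52.4% of all genes did not overlap. In the 12 alternatives that kept the test for any change, calls that held throughout were those of *Fzd4*, *Fzd6* and *Lrp5* among the higher members and of *Wnt10b*, *Wnt16*, *Fzd2*, *Sfrp1*, *Sfrp4*, *Dkk3*, *Rspo2* and *Lgr5* among the lower ones. A stricter test, against a 2-fold change itself, left 2 downregulated and no upregulated members. Without FMT-Ctrl replicate 1 all 18 were again past the test in the same direction, and *Wnt10a*, *Fzd8*, *Ryk*, *Sfrp2* and *Axin2* were added as lower, which brought the calls to 59% of tested members, beside 41.7% of the genes tested without that library. Leaving out an FMT-Exer sample lowered the calls instead. Without FMT-Exer replicate 1, 2 or 3, 11, 12 and 12 members were called (27.5%, 30% and 30.8%, beside 18.4%, 16.9% and 17.3% of all genes tested), of which 3, 4 and 3 were higher.

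**Figure D1:**
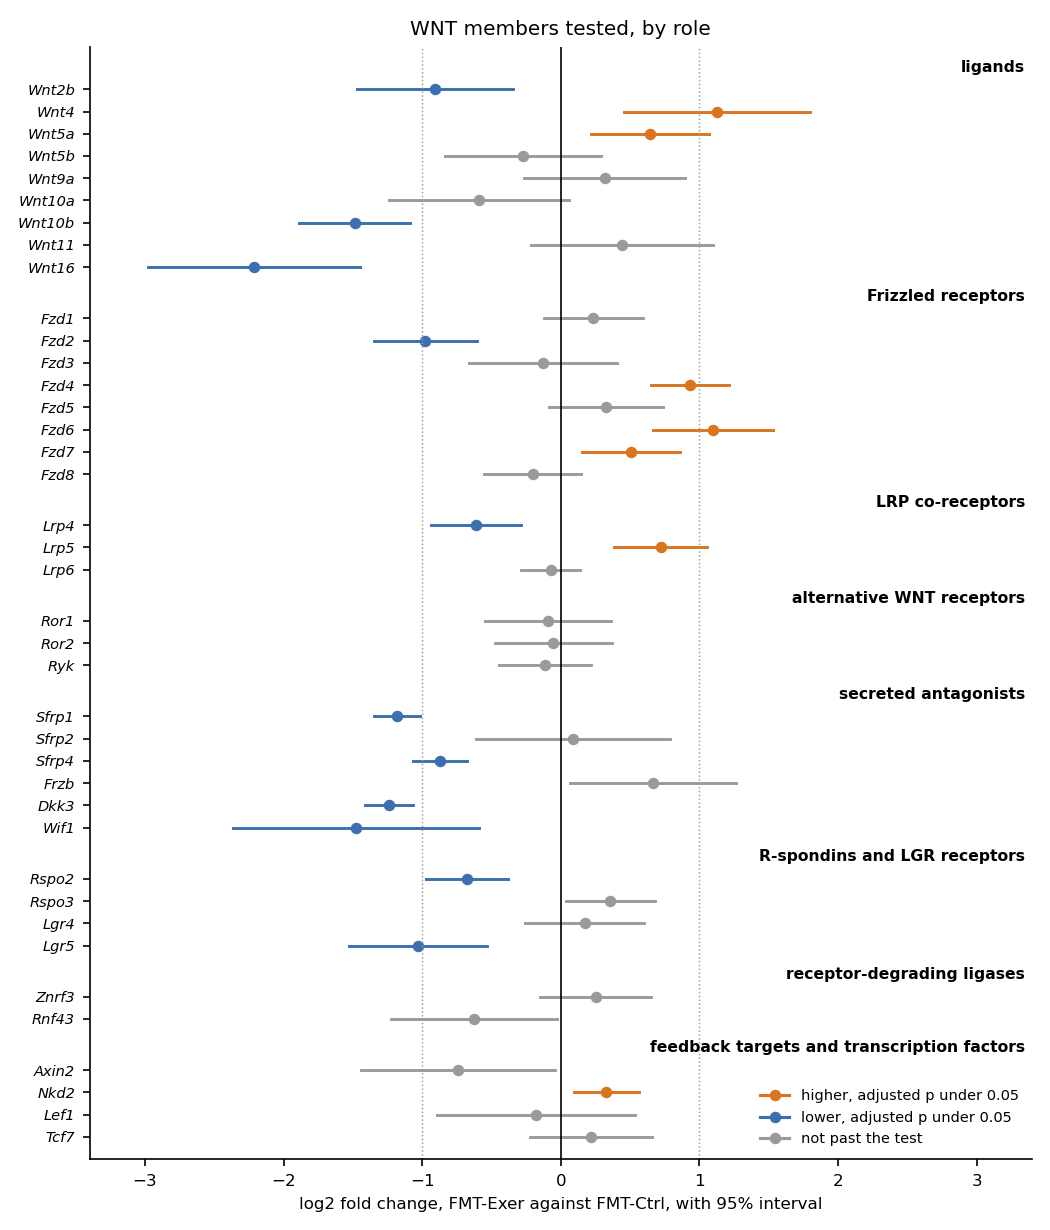
Log2 fold change of each of the 39 tested members in FMT-Exer against FMT-Ctrl (3 samples each), grouped by role, with points for the edgeR estimate and bars for its 95% interval. Orange marks the 7 members past the test as higher, blue the 11 lower and grey the 21 not past it, and dotted lines mark a 2-fold change. The 4 secreted antagonists past the test were all lower (*Wif1* could only be lower, since it passed the filter through FMT-Ctrl alone), while ligands and receptors lay on both sides of 0.

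Promoters of the members with the largest changes are shown first, because they are where a shared control of rising or falling members would be looked for. RefSeq holds a promoter on GRCm38.p6 for 39 of the 58 members (47 start sites), and 8 of these 39 were past the test. Shown, 5′ to 3′ on the gene's strand, are the 2 higher and the 2 lower members with the largest change among those 8, each as the longest stretch of the 250 bases before the RefSeq start that GENCODE places in no exon. That stretch had 104 bases for *Wnt4*, 132 for *Fzd4* and 250 for both *Wnt16* and *Wnt10b*. Capitals mark GC boxes, the letters GGGCGG on either strand, which Sp family factors are known to bind, and matches may overlap each other.
*Wnt4*, higher, chr4:137277385-137277488, plus strand: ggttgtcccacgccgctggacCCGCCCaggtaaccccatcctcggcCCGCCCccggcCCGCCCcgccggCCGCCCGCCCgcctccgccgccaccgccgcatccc
*Fzd4*, higher, chr7:89404223-89404354, plus strand: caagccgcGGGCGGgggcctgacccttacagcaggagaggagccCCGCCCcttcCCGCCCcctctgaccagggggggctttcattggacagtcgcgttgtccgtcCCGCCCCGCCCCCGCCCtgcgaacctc
*Wnt16*, lower, chr6:22287977-22288226, plus strand: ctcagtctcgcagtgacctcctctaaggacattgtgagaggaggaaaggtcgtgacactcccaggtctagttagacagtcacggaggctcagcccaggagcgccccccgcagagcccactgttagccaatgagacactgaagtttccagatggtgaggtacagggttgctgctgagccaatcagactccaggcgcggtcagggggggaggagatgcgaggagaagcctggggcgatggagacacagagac
*Wnt10b*, lower, chr15:98778151-98778400, minus strand: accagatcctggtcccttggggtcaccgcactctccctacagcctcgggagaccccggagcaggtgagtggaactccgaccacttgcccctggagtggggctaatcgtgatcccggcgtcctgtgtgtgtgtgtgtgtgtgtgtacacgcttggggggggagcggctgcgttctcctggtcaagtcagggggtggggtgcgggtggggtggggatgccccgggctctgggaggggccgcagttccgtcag

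Over the whole 250 bases, the promoters of both risen genes held many GC boxes, 8 in *Wnt4* (5 of them in the stretch shown) and 7 in *Fzd4* (6 shown), and those of *Wnt16* and *Wnt10b* held none. Their GC content was 85.2% and 72.8% against 59.2% and 66.8%, where the median over all 32851 RefSeq promoters was 52.4%. This contrast did not extend to every member past the test, since a GC box was present in 3 of 4 higher and 2 of 4 lower members with a promoter. A GC box was present in 32.7% of all promoters and in 68.1% of the 47 member promoters. Matches to the TCF/LEF letters, CTTTG followed by AA, AT, TA or TT, on either strand, which can overlap a GC box by at most 1 base, were found in 14.8% of all promoters and 10.6% of member promoters. Among the 8 members past the test that have a promoter, only *Fzd7* held one. A match is a description of letters, and its absence from this window says nothing of the factor.

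Of the 19 WNT ligands, 9 were tested, and 2 of these were higher (22.2%) and 3 lower (33.3%), beside 16.6% and 15.5% of all genes. *Wnt10b*, *Wnt2b* and *Wnt16* fell while *Wnt5a* and *Wnt4* rose. *Wnt10b* (ENSMUSG00000022996, chr15:98770712-98778150), a ligand of the β-catenin branch known for promoting osteoblast and restraining adipocyte formation, had 13.5, 9.50 and 10.2 CPM in FMT-Ctrl replicates 1, 2 and 3 and 4.39, 3.60 and 3.82 CPM in the FMT-Exer replicates. Every FMT-Exer sample lay below every FMT-Ctrl sample. The mean was 11.1 ± 2.12 CPM (SD, n = 3) against 3.94 ± 0.408 CPM (SD, n = 3), 2.80-fold lower in FMT-Exer (log2 fold change -1.49, standard error 0.17, adjusted p = 0.000726 from edgeR). *Wnt16* (ENSMUSG00000029671, chr6:22288227-22298522), a ligand known for protecting cortical bone, had 2.10, 1.49 and 2.65 CPM in FMT-Ctrl and 0.471, 0.523 and 0.348 CPM in FMT-Exer, from 43, 29 and 57 counts against 9, 9 and 7. It was 4.64-fold lower (log2 fold change -2.22, standard error 0.33, adjusted p = 0.00226) and the groups did not overlap, but it passed the filter through FMT-Ctrl alone, which fixed its direction. *Wnt2b* had 1.71, 1.64 and 1.53 CPM in FMT-Ctrl and 0.942, 0.697 and 0.944 CPM in FMT-Exer, with no overlap of the groups (log2 fold change -0.91, standard error 0.24, adjusted p = 0.0249). Its call held in only 5 of 12 alternatives, DESeq2 not among them, with an adjusted p-value of up to 0.0919.

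*Wnt5a* (ENSMUSG00000021994, chr14:28504750-28527448), the main ligand of the β-catenin-independent branch, had 21.0, 36.9 and 34.0 CPM in FMT-Ctrl replicates 1, 2 and 3 and 47.7, 46.8 and 49.2 CPM in FMT-Exer. The FMT-Exer samples lay close together and above all FMT-Ctrl samples, among which replicate 1 was the lowest. The difference was 1.56-fold (log2 fold change 0.64, standard error 0.18, adjusted p = 0.0308), and without FMT-Ctrl replicate 1 it was a log2 fold change of 0.44 (adjusted p = 0.000179 from edgeR). With any 1 FMT-Exer sample left out, its adjusted p-value was above 0.05 and reached 0.101. *Wnt4* (ENSMUSG00000036856, chr4:137277489-137299726), a ligand known to act in bone through β-catenin-independent signals, had 1.32, 1.69 and 2.23 CPM in FMT-Ctrl and 4.29, 2.56 and 4.62 CPM in FMT-Exer. FMT-Exer replicate 2 was the lowest of its group and lay just above the highest FMT-Ctrl sample. *Wnt4* was 2.19-fold higher (log2 fold change 1.13, standard error 0.29, adjusted p = 0.0214), with a log2 fold change of 0.96 without FMT-Ctrl replicate 1, under a 2-fold change, and an adjusted p-value of up to 0.0908 in the alternatives.

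The other ligands were not past the test. *Wnt10a*, a β-catenin branch ligand close to *Wnt10b* in sequence, had 3.03, 5.44 and 5.72 CPM in FMT-Ctrl and 3.87, 2.38 and 3.13 CPM in FMT-Exer, and the groups overlapped because FMT-Ctrl replicate 1 lay among the FMT-Exer samples (log2 fold change -0.59, standard error 0.28, adjusted p = 0.142). Without that library its log2 fold change was -0.83 (adjusted p = 0.00446 from edgeR). For *Wnt5b*, *Wnt9a* and *Wnt11*, 95% intervals of the log2 fold change were -0.84 to 0.29, -0.27 to 0.90 and -0.21 to 1.10, all of which held 0. *Wnt6* had 3 to 9 counts and *Wnt7b* 2 to 12 counts per sample, below the filter, and *Wnt1* and *Wnt9b* had at most 1. *Wnt2*, *Wnt3*, *Wnt3a*, *Wnt7a*, *Wnt8a* and *Wnt8b* had no count in any sample, which allows a level of up to 0.174 CPM in the shallowest sample.

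Levels of different genes were compared per gene length, as TPM computed from the deposited counts and lengths. The summed ligand level was 30.2, 33.6 and 35.2 TPM in FMT-Ctrl replicates 1, 2 and 3 and 28.8, 25.7 and 29.9 TPM in FMT-Exer. As CPM, with no division by length, the order turned, with a sum of 47.5, 62.0 and 62.3 CPM in FMT-Ctrl and 67.0, 61.1 and 68.4 CPM in FMT-Exer, so no direction is drawn from the sum. *Wnt10b* made up 41.9, 27.0 and 27.1% of the ligand sum in FMT-Ctrl and 13.8, 13.1 and 11.9% in FMT-Exer. The share of *Wnt5a* was 20.8, 33.3 and 28.6% in FMT-Ctrl and 47.6, 54.0 and 48.7% in FMT-Exer, so that it was the leading ligand in FMT-Exer, by a margin larger than the spread of the samples. In FMT-Ctrl the order was not settled, since *Wnt10b* led in replicate 1 and *Wnt5a* in replicates 2 and 3.

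**Figure D2:**
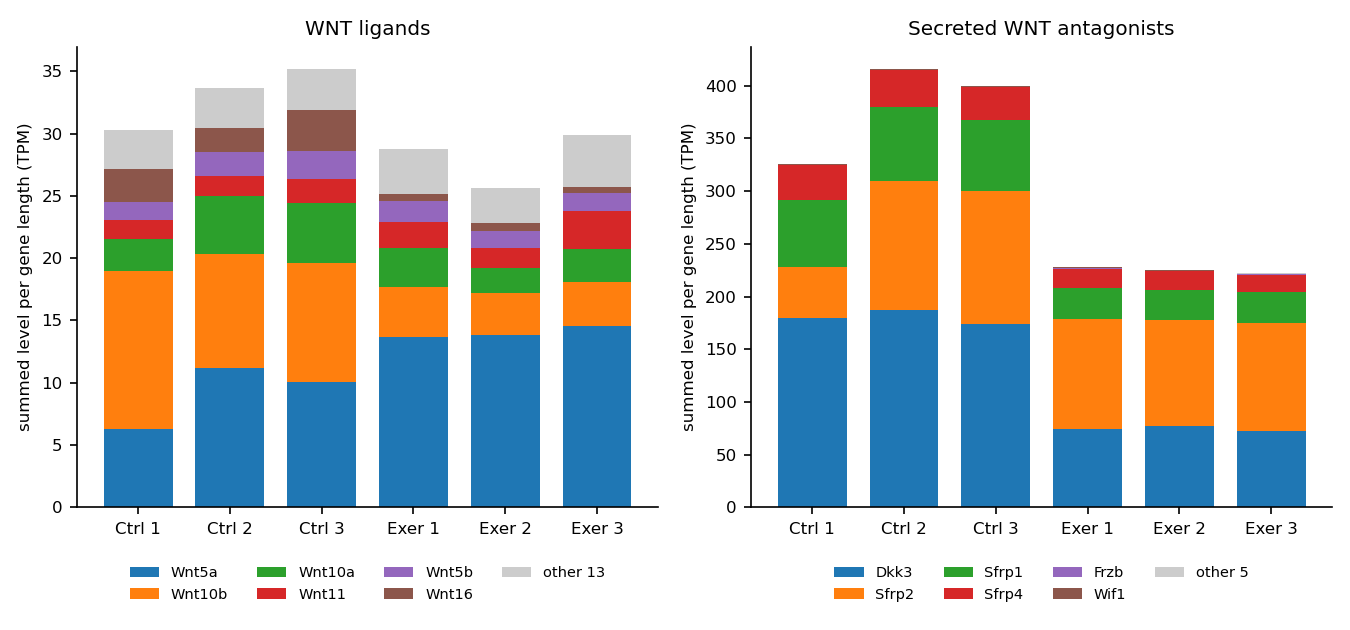
Summed level per gene length (TPM) of the 19 WNT ligands (left) and the 11 secreted antagonists (right) in each of the 6 samples, stacked by the 6 members with the highest mean and the rest together. The blue *Wnt5a* segment is larger and the orange *Wnt10b* segment smaller in every FMT-Exer sample. The antagonist sum is 326 to 416 TPM in FMT-Ctrl and 222 to 228 TPM in FMT-Exer. Without *Dkk3*, its leading member in FMT-Ctrl, the sum of FMT-Ctrl replicate 1 lies below those of all FMT-Exer samples.

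The Frizzled receptors, the seven-pass proteins that bind WNT, moved in both directions. *Fzd4*, *Fzd6* and *Fzd7* rose, *Fzd2* fell, and *Fzd1*, *Fzd3*, *Fzd5* and *Fzd8* were not past the test. Of the 8 tested, 37.5% were thus higher and 12.5% lower, beside 16.6% and 15.5% of all genes. *Fzd4* (ENSMUSG00000049791, chr7:89404355-89413134), known as a receptor for norrin and WNT in vessel growth, had 15.8, 20.3 and 20.6 CPM in FMT-Ctrl and 34.5, 39.3 and 34.5 CPM in FMT-Exer. No sample came near the other group, and the difference was 1.91-fold (log2 fold change 0.93, standard error 0.12, adjusted p = 0.00122). *Fzd6* (ENSMUSG00000022297, chr15:39006034-39038188), a receptor of the planar polarity branch, rose from 1.76, 2.57 and 2.46 CPM to 4.97, 4.94 and 4.67 CPM. It was 2.14-fold higher, with a tight FMT-Exer group (log2 fold change 1.10, standard error 0.19, adjusted p = 0.00397), and without FMT-Ctrl replicate 1 the log2 fold change was 0.95. *Fzd7*, the receptor with the highest CPM of the family, had 36.3, 54.2 and 55.1 CPM in FMT-Ctrl and 70.0, 64.5 and 72.4 CPM in FMT-Exer (log2 fold change 0.51, standard error 0.15, adjusted p = 0.0379). That call depended on the FMT-Exer samples, since leaving out any 1 of them brought the adjusted p-value above 0.05, at most 0.124. Without FMT-Ctrl replicate 1 the log2 fold change of *Fzd7* was 0.34 (adjusted p = 0.000996 from edgeR).

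*Fzd2* (ENSMUSG00000050288, chr11:102604396-102608058), a partner of WNT5A in many cells, moved the other way, with 19.9, 29.5 and 28.2 CPM in FMT-Ctrl and 13.97, 13.7 and 11.8 CPM in FMT-Exer. It was 1.97-fold lower (log2 fold change -0.98, standard error 0.16, adjusted p = 0.00348), and more so without FMT-Ctrl replicate 1, at a log2 fold change of -1.14. Measured per length, the summed Frizzled level was 70.4, 110.4 and 102 TPM in FMT-Ctrl and 109.8, 107 and 111 TPM in FMT-Exer, so the sum overlapped while its make-up differed. *Fzd2* held 16.1, 15.5 and 15.7% of it in FMT-Ctrl and 6.99, 7.26 and 6.02% in FMT-Exer. *Fzd4* went from 7.0, 5.84 and 6.26% to 9.41, 11.4 and 9.58%. *Fzd5* held the largest share in FMT-Ctrl, 26.8, 29.3 and 28.2%, and 30.4, 27.8 and 31.1% in FMT-Exer, where *Fzd7* was within its spread. *Fzd1*, *Fzd3*, *Fzd5* and *Fzd8* had 95% intervals of -0.12 to 0.59, -0.66 to 0.40, -0.09 to 0.74 and -0.55 to 0.15 for the log2 fold change, and *Fzd8*, with 13.3, 20.3 and 17.5 CPM in FMT-Ctrl and 15.1, 14.4 and 15.0 CPM in FMT-Exer, reached -0.35 without FMT-Ctrl replicate 1 (adjusted p = 0.0116 from edgeR). *Fzd9* and *Fzd10* had at most 6 and 3 counts in a sample.

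Of the 3 LRP co-receptors, *Lrp5* rose, *Lrp4* fell and *Lrp6* was not past the test (33.3% higher and 33.3% lower, beside 16.6% and 15.5% of all genes). *Lrp5* (ENSMUSG00000024913, chr19:3584828-3686564), whose protein presents WNT to the β-catenin branch beside Frizzled, had 44.8, 65.2 and 63.5 CPM in FMT-Ctrl and 87.5, 95.5 and 103 CPM in FMT-Exer, with every FMT-Exer sample above every FMT-Ctrl sample. It was 1.65-fold higher (log2 fold change 0.72, standard error 0.14, adjusted p = 0.00809). *Lrp4* (ENSMUSG00000027253, chr2:91457511-91513779), which anchors sclerostin and so helps to restrain the signal in bone, had 38.3, 54.2 and 53.0 CPM and 30.7, 29.8 and 34.7 CPM. Its drop (log2 fold change -0.61, standard error 0.14, adjusted p = 0.0137) was -0.76 on the log2 scale without FMT-Ctrl replicate 1, and its adjusted p-value reached 0.0587 with FMT-Exer samples left out. *Lrp6* had 131, 155 and 142 CPM in FMT-Ctrl and 126, 137 and 145 CPM in FMT-Exer, and the 95% interval of its log2 fold change, -0.29 to 0.14, held it within a narrow range. Per length, *Lrp5* had 18.2, 26.9 and 25.5 TPM in FMT-Ctrl and 34.1, 38.4 and 41.2 TPM in FMT-Exer, and *Lrp6* 29.3, 35.1 and 31.6 TPM and 27.0, 30.3 and 32.0 TPM. The order of the pair thus differed between groups, with *Lrp6* above *Lrp5* in each FMT-Ctrl sample and below it in each FMT-Exer sample.

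The alternative WNT receptors were not past the test. *Ryk* had 97.0, 142 and 143 CPM in FMT-Ctrl and 122, 118 and 114 CPM in FMT-Exer (95% interval of the log2 fold change -0.45 to 0.22), and the intervals for *Ror1* and *Ror2*, receptors for WNT5A, were -0.54 to 0.36 and -0.48 to 0.37. FMT-Ctrl replicate 1 was again the lowest FMT-Ctrl sample for all 3 genes, and without it the log2 fold change of *Ryk* was -0.28 (adjusted p = 0.00109 from edgeR).

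**Figure D3:**
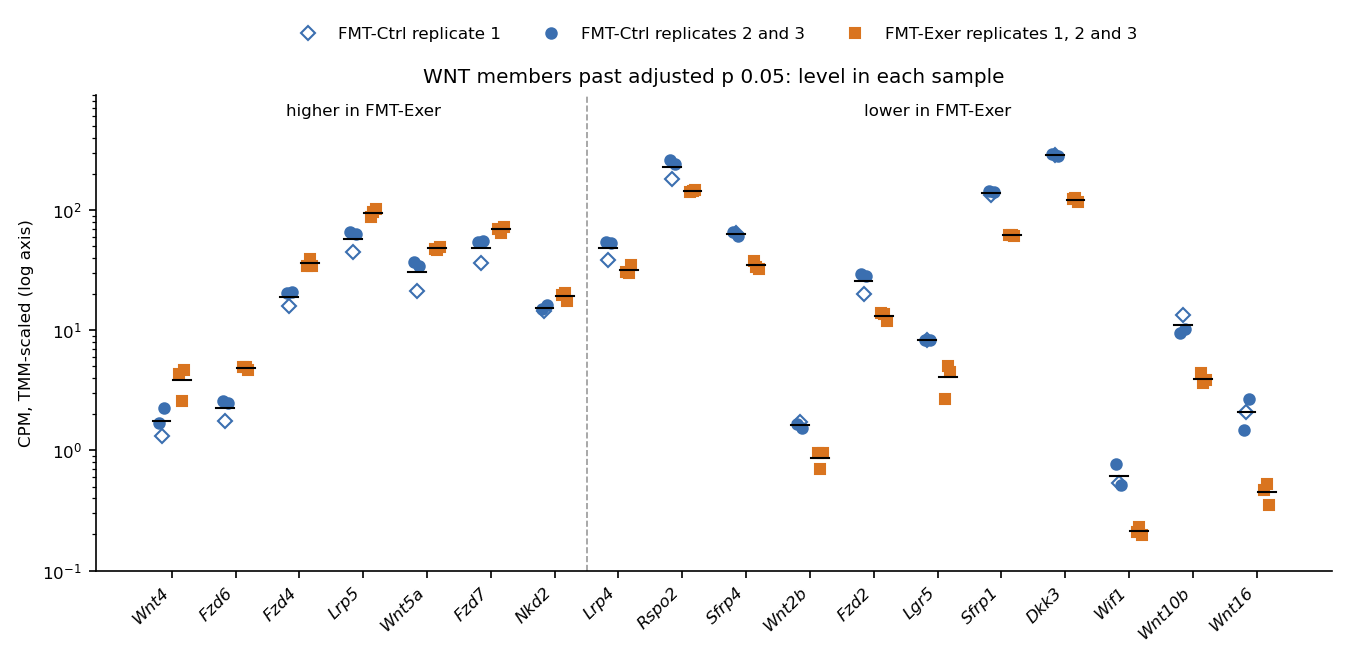
Level of the 18 members past the test in each sample, as TMM-scaled CPM on a log axis, with FMT-Ctrl in blue (replicate 1 as an open diamond), FMT-Exer in orange and black lines for group means. The 7 members at the left were higher and the 11 at the right lower in FMT-Exer. The groups overlap for none of them, but these members were chosen by the test on the same samples. Of all genes tested, 52.4% did not overlap. FMT-Ctrl replicate 1 is the lowest control for *Wnt5a*, *Lrp5* and *Fzd7* and the highest for *Wnt10b*.

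Of the 6 secreted antagonists tested, *Sfrp1*, *Sfrp4* and *Dkk3* fell, *Sfrp2* and *Frzb* were not past the test, and none rose, where 15.5% of all genes were lower. *Wif1* was also lower, in a direction that the filter fixed, which brought the lower share of the 6 to 66.7%. *Sfrp1* (ENSMUSG00000031548, chr8:23411502-23449632), a WNT-binding decoy known to limit bone formation, had 133, 145 and 142 CPM in FMT-Ctrl and 62.3, 61.4 and 60.8 CPM in FMT-Exer. The gap between the groups was many times the spread within them. The mean was 139.6 ± 6.33 CPM (SD, n = 3) in FMT-Ctrl and 61.5 ± 0.783 CPM (SD, n = 3) in FMT-Exer, 2.27-fold lower (log2 fold change -1.18, standard error 0.07, adjusted p = 4.99e-05 from edgeR). *Dkk3* (ENSMUSG00000030772, chr7:112116017-112159057), a divergent Dickkopf protein whose action on WNT depends on the cell, fell from 287, 295 and 282 CPM to 124, 125 and 117 CPM. It had the smallest adjusted p-value of all tested members, with a 2.36-fold drop (log2 fold change -1.24, standard error 0.07, adjusted p = 4.74e-05). *Sfrp4* (ENSMUSG00000021319, chr13:19623104-19632994), loss of which thins cortical bone, had 64.0, 65.4 and 60.8 CPM in FMT-Ctrl and 37.8, 33.8 and 32.4 CPM in FMT-Exer, again without overlap (log2 fold change -0.87, standard error 0.08, adjusted p = 0.000331). FMT-Ctrl replicate 1 did not stand apart for *Sfrp1*, *Sfrp4* or *Dkk3*, and over the alternatives their log2 fold changes stayed at -1.27 to -1.15, -0.96 to -0.84 and -1.33 to -1.22.

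*Wif1*, which binds WNT directly, was close to the floor, with 11, 15 and 11 counts in FMT-Ctrl and 4, 4 and 4 in FMT-Exer. Its 2.78-fold drop (log2 fold change -1.48, standard error 0.39, adjusted p = 0.0224) was above the threshold, at up to 0.106, in 6 of the 11 alternatives in which it could be tested. *Sfrp2* (ENSMUSG00000027996), with *Dkk3* the antagonist of the highest mean level per length in each group, was below *Sfrp1* in FMT-Ctrl replicate 1 (48.6 against 63.5 TPM). The result for *Sfrp2* turned on 1 library. It had 46.5, 115 and 121 CPM in FMT-Ctrl replicates 1, 2 and 3 and 104, 96.8 and 99.3 CPM in FMT-Exer, so that replicate 1 lay below and replicates 2 and 3 above every FMT-Exer sample. With all samples the log2 fold change was 0.09 (95% interval -0.61 to 0.79, adjusted p = 0.845 from edgeR), and without FMT-Ctrl replicate 1 it was -0.24 (adjusted p = 0.00396). *Frzb* had 0.977, 0.821 and 0.697 CPM in FMT-Ctrl and 1.36, 1.16 and 1.44 CPM in FMT-Exer, a difference that missed the threshold (log2 fold change 0.67, standard error 0.26, adjusted p = 0.0833). *Dkk1* and *Dkk2*, Dickkopf proteins that block LRP5 and LRP6, had at most 5 and 11 counts in a sample, and *Sost*, the sclerostin gene of osteocytes, *Dkk4* and *Sfrp5* had none. Per length, the summed antagonist level was 326, 416 and 399.7 TPM in FMT-Ctrl and 228, 225 and 222 TPM in FMT-Exer, with *Dkk3* at 55.0, 45 and 43.6% of it in FMT-Ctrl and 32.5, 34.3 and 32.6% in FMT-Exer. Without *Dkk3* the sums of the groups overlapped, with FMT-Ctrl replicate 1 below every FMT-Exer sample and replicates 2 and 3 above.

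The R-spondin arm fell in its main ligand and in 1 receptor. Of 4 tested genes, 50% were thus lower and none higher, beside 15.5% and 16.6% of all genes. *Rspo2* (ENSMUSG00000051920, chr15:43020794-43170826), which raises WNT signaling by protecting Frizzled, had 183, 260.4 and 242 CPM in FMT-Ctrl and 140.2, 143 and 146 CPM in FMT-Exer. All FMT-Exer samples were below all FMT-Ctrl samples, by 1.60-fold in the fit (log2 fold change -0.68, standard error 0.13, adjusted p = 0.0065). *Rspo3*, the R-spondin of endothelial and other stromal cells, had 5.66, 7.14 and 7.35 CPM and 9.05, 8.49 and 8.30 CPM and missed the threshold (log2 fold change 0.36, standard error 0.14, adjusted p = 0.0819), although its groups did not overlap. *Lgr5* (ENSMUSG00000020140, chr10:115450311-115587780), an R-spondin receptor known from epithelial stem cells, had 8.30, 8.27 and 8.32 CPM in FMT-Ctrl and 2.67, 5.06 and 4.47 CPM in FMT-Exer. Its FMT-Ctrl samples were nearly equal, its FMT-Exer samples were spread and lower, and the drop was 2.04-fold (log2 fold change -1.03, standard error 0.22, adjusted p = 0.00964). *Lgr4*, the related receptor with the higher CPM, had 10.8, 18.3 and 17.3 CPM in FMT-Ctrl and 17.9, 17.9 and 16.5 CPM in FMT-Exer (95% interval of the log2 fold change -0.26 to 0.60). *Rspo1* and *Rspo4* had at most 6 and 2 counts in a sample.

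For the ligases that remove Frizzled from the surface, the values were 7.81, 12.01 and 12.4 CPM in FMT-Ctrl and 13.2, 12.6 and 12.5 CPM in FMT-Exer for *Znrf3* (log2 fold change 0.25, standard error 0.17, adjusted p = 0.298) and 1.07, 1.49 and 1.39 CPM and 0.785, 0.930 and 0.844 CPM for *Rnf43* (log2 fold change -0.63, standard error 0.26, adjusted p = 0.0992). Neither passed the test, and they pointed in opposite directions. Among the feedback genes, *Axin2* (ENSMUSG00000000142), a direct β-catenin target widely used as its readout, had 2.05, 3.75 and 2.51 CPM in FMT-Ctrl and 1.57, 1.22 and 2.14 CPM in FMT-Exer. The groups overlapped and the test was not passed (log2 fold change -0.74, standard error 0.30, adjusted p = 0.0974), while without FMT-Ctrl replicate 1 the log2 fold change was -0.91 (adjusted p = 0.0199 from edgeR). *Nkd2*, which binds Dishevelled and dampens the signal, had 14.4, 15.0 and 16.2 CPM in FMT-Ctrl and 19.6, 20.2 and 17.5 CPM in FMT-Exer. It rose 1.26-fold (log2 fold change 0.33, standard error 0.10, adjusted p = 0.04), a call that was lost in 10 of 12 alternatives. *Lef1* and *Tcf7*, transcription factors that partner β-catenin and that lymphocytes also express, had 95% intervals of -0.89 to 0.54 and -0.22 to 0.66 for their log2 fold changes, with FMT-Ctrl replicate 1 the lowest of the 6 samples for both.

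**Figure D4:**
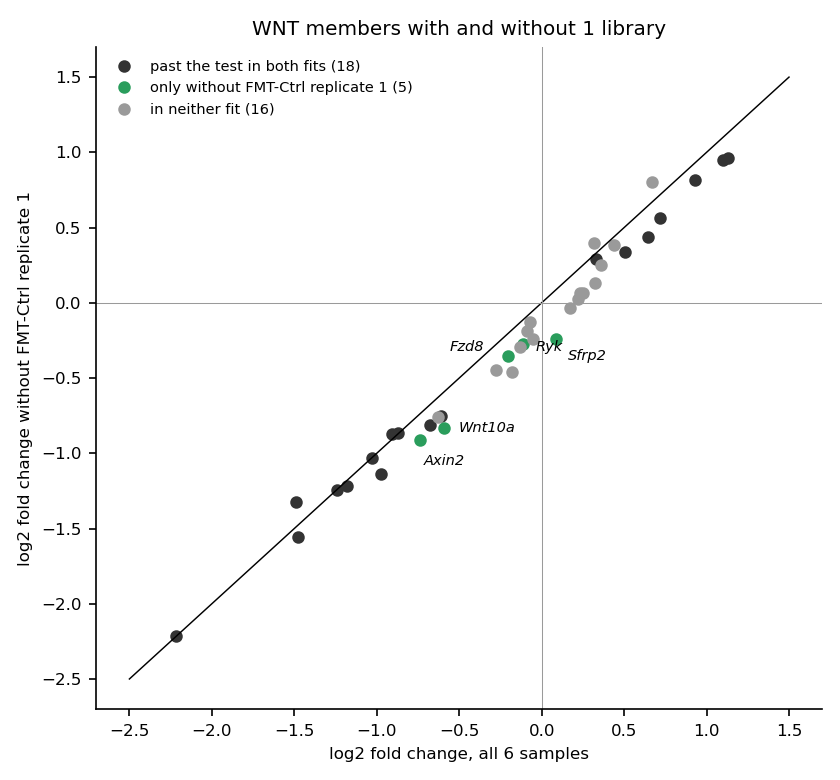
Log2 fold change of each of the 39 tested members with all 6 samples (horizontal axis) and without FMT-Ctrl replicate 1 (vertical axis), with the line of equal values. Black points (18) were past the test in both fits and grey points (16) in neither, and the 5 green points, named, were past it only without that library. Most points lie below the line.

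Other genes of the WNT pathway, in 6 lists chosen by function, also moved in both directions. Of 149 listed genes found in the table that are not members, 134 were tested, with 30 higher (22.4%) and 24 lower (17.9%), beside 16.6% and 15.5% over all genes, and their median log2 fold change was 0.12. Among 19 tested genes of WNT secretion and extracellular modulation, 4 were higher (21.1%) and 6 lower (31.6%). *Serpinf1*, the PEDF gene whose protein is known to bind LRP6, *Sulf1*, a heparan sulfate editing enzyme, and *Cthrc1* led the lower ones, with a log2 fold change of -1.14, -0.90 and -1.37 (adjusted p = 7.65e-05, 0.000229 and 0.000299). *Tspan12*, the norrin co-receptor partner of FZD4, *Apcdd1*, a WNT inhibitor, and *Sulf2* led the higher ones, at 0.85, 0.95 and 0.53 (adjusted p = 0.00338, 0.0056 and 0.018). Both dedicated genes of WNT export also fell, and were singled out after their values were seen. *Porcn*, whose enzyme attaches the lipid to WNT, had 11.1, 12.01 and 9.11 CPM in FMT-Ctrl and 3.56, 4.77 and 4.27 CPM in FMT-Exer (log2 fold change -1.36, standard error 0.16, adjusted p = 0.000861), and *Wls*, the carrier that takes WNT to the surface, had 205, 229 and 220.3 CPM and 154, 159 and 154 CPM (log2 fold change -0.49, standard error 0.08, adjusted p = 0.00274).

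The cytoplasmic core of the β-catenin branch had 5 of 26 tested genes higher, 3 lower and no DEG, and its 30.8% called was near the 32.2% of all genes. The higher ones with the smallest adjusted p-values were *Gsk3a*, *Ctnnbip1* and *Frat2*, which differed on the log2 scale by 0.50, 0.56 and 0.85 (adjusted p = 0.00986, 0.0167 and 0.0204), and the lower ones were *Usp34*, *Dact1* and *Amer1*, at -0.30, -0.55 and -0.32 (adjusted p = 0.0301, 0.0312 and 0.0437). *Ctnnb1*, the β-catenin gene itself, had 521, 534 and 544 CPM in FMT-Ctrl and 501, 526 and 505 CPM in FMT-Exer (95% interval of the log2 fold change -0.23 to 0.11). Of 20 nuclear partners, 6 were higher (30%) and 2 lower (10%). *Sox17*, a factor of endothelium and endoderm that antagonizes β-catenin, rose from 1.12, 1.54 and 1.16 CPM to 9.26, 8.14 and 7.30 CPM (log2 fold change 2.69, standard error 0.19, adjusted p = 8.1e-05), and *Tcf7l2*, a β-catenin partner, rose from 12.9, 31.1 and 33.1 CPM to 63.0, 62.2 and 67.8 CPM (log2 fold change 1.32, standard error 0.29, adjusted p = 0.012), with FMT-Ctrl replicate 1 far below the other controls. The corepressor *Tle4* rose as well (0.58, adjusted p = 0.0222), and *Pygo1* and *Tle2* fell (-1.19 and -0.60, adjusted p = 0.00351 and 0.0247).

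Listed β-catenin target genes went both ways, with 8 higher (32%) and 6 lower (24%) of 25 tested, beside 16.6% and 15.5% of all genes. *Sp5*, a direct target in many tissues, had 1, 0 and 1 counts in FMT-Ctrl and 14, 16 and 13 in FMT-Exer, a ratio of 23.4 (95% counting interval 6.1 to 199). It passed the filter through the FMT-Exer group alone, so it had to be among the 8 higher ones if past the test. *Edn1* and *Id2*, which many other signals also control, were the other higher ones by the rule, at log2 values of 1.45 and 1.09 (adjusted p = 0.000103 and 0.000137). *Tnfrsf19*, *Ephb2* and *Ccn5* led the lower ones, at -1.18, -1.26 and -0.44 (adjusted p = 0.00205, 0.00208 and 0.00362). In the planar polarity branch, 5 of 23 tested genes were higher and 2 lower (30.4% called, near the 32.2% of all genes), led by *Celsr1*, *Rac2* and *Prickle2* (1.44, 0.41 and 0.65, adjusted p = 0.00228, 0.012 and 0.0204) and by *Invs* and *Mapk8* (-0.44 and -0.46, adjusted p = 0.0129 and 0.0406). In the calcium branch, 2 of 21 were higher, *Nlk* and *Prkcb* (0.54 and 0.28, adjusted p = 0.0178 and 0.0271), and 5 lower (33.3% called, again near that of all genes). *Ppp3cc*, *Camk2a* and *Camk2g* led these, at -1.17, -1.88 and -0.37 (adjusted p = 0.000146, 0.00119 and 0.00981). Of the pathway genes named here by the rule, the call of *Amer1* held in 4 of 12 alternatives (adjusted p up to 0.142), that of *Prkcb* in 5 (up to 0.112) and those of *Usp34*, *Dact1* and *Mapk8* in 8 (up to 0.101, 0.107 and 0.133). Calls of *Nlk*, *Tle2*, *Tle4* and *Prickle2* held in 9, of *Sulf2*, *Ctnnbip1*, *Frat2* and *Rac2* in 10, and of *Tcf7l2*, *Invs* and *Camk2g* in 11.

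Markers of the cell types that such cultures can hold also differed between the groups. For the counts of calls below, the share over all genes was 16.6% higher and 15.5% lower. In bulk RNA, fewer cells of a type and less RNA per cell cannot be told apart. Endothelial markers, 12 of 12 higher, had a summed level of 224.7 to 285.5 CPM in FMT-Ctrl and 767 to 840.2 CPM in FMT-Exer. Of 14 stromal markers, 9 were lower and 2 higher, and their summed level, 14740 to 22994 CPM in FMT-Ctrl and 14153 to 15442 CPM in FMT-Exer, overlapped only through FMT-Ctrl replicate 1. Of the 9, *Lum* passed the filter through FMT-Ctrl alone and could only be lower. Without *Col1a1*, the leading gene, the sum was 10177 to 13043 CPM and 7358 to 7733 CPM, with no overlap. Osteoblast markers, 4 of 5 tested lower, summed to 172.8 to 228.7 CPM and 110.5 to 115.1 CPM, of which *Alpl* made up 45.8% to 51.7%. Without it the sum was 84.6 to 110.9 CPM and 55.6 to 60.0 CPM. Below the filter, *Dmp1* went the other way, with 6, 2 and 7 counts in FMT-Ctrl and 10, 16 and 13 in FMT-Exer. *Bglap* and *Bglap2* had at most 1 count in a sample, and *Mepe* was at 0 in every sample. Adipocyte markers had 5 of 6 tested higher, of which *Plin1* passed the filter through FMT-Exer alone and could only be higher. Their sum of 935 to 1048 CPM in FMT-Ctrl and 2779 to 3226 CPM in FMT-Exer was 81.4% to 89.4% *Lpl*, a lipase gene that macrophages and other cells also express, and was 173.7 to 190.7 CPM and 313.9 to 340.6 CPM without it. *Adipoq*, the adiponectin gene that defines adipocytes, was near the floor at a mean of 0.813 and 1.02 CPM and not past the test (adjusted p = 0.414 from edgeR), *Cidec* had at most 0.046 CPM and *Lep* was at 0. B lineage markers, 7 of 9 tested lower and with *Rag2* at 0, summed to 1591 to 1968 CPM and 419.7 to 442 CPM, and osteoclast markers, 7 of 8 lower and 1 higher, to 801.7 to 821.9 CPM and 378.8 to 406.1 CPM. Of these 7, *Calcr* and *Oscar* passed the filter through FMT-Ctrl alone and could only be lower. T and NK cell markers, a known source of *Lef1* and *Tcf7* RNA, summed to 65.1 to 65.9 CPM and 66.5 to 74.1 CPM. Of these 10 markers, 1 was higher and 2 lower (30% called, near the 32.2% of all genes). Without *Cd4*, which led the sum, they summed to 22.4 to 26.2 CPM and 16.5 to 19.5 CPM. Mural cell markers had 5 of 8 higher, among them *Cspg4* and *Rgs5*, and 2 lower, *Acta2* and *Tagln*, which dominate their sum of 2499 to 2939 CPM in FMT-Ctrl and 1832 to 2041 CPM in FMT-Exer. Neutrophil lineage markers summed to 3286 to 4364 CPM and 5733 to 5975 CPM (4 of 10 higher, 1 lower), megakaryocyte markers to 256.9 to 315.9 CPM and 474.5 to 505.7 CPM (3 of 5 higher), and macrophage and monocyte markers to 8504 to 12799 CPM and 6713 to 7175 CPM (3 of 10 higher, 2 lower). The last difference was carried by *Lyz2*, the lysozyme gene of myeloid cells, and the other 9 markers summed to 3491 to 3697 CPM in FMT-Ctrl and 3939 to 4117 CPM in FMT-Exer, the opposite order. Erythroid markers stayed under 0.9 CPM in sum and none of the 7 passed the filter. Lists and members that differ between the groups do so in the same samples, so no member is matched to a list here. The part of these cell types in the WNT differences was not tested.

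**Figure D5:**
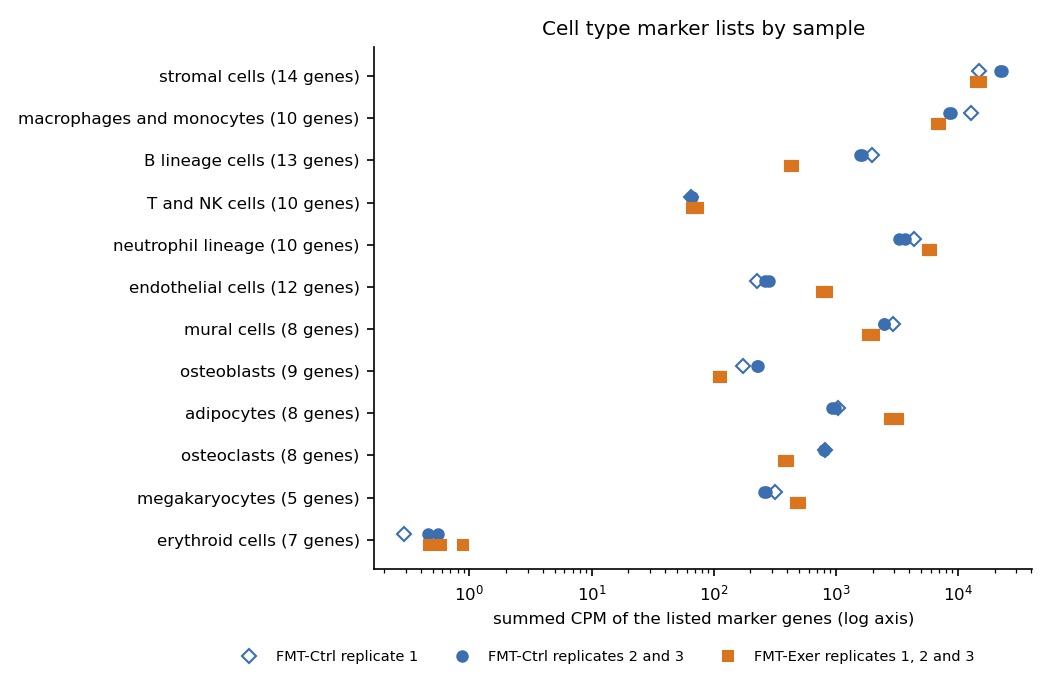
Summed TMM-scaled CPM (log axis) of 12 marker lists in each sample, with FMT-Ctrl in blue (replicate 1 as an open diamond) and FMT-Exer in orange. Endothelial and adipocyte lists (the latter mostly *Lpl*) are higher and B lineage, osteoblast and osteoclast lists lower in all 3 FMT-Exer samples, while FMT-Ctrl replicate 1 is the lowest control for stromal cells and the highest for macrophages and monocytes, a list in which *Lyz2* alone sets it apart.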

How the data were processed

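RNA-Seq of bone marrow MSCs was examined in 3 FMT-Ctrl and 3 FMT-Exer samples, grouped by the sample labels. The authors deposited estimated counts (expected counts per gene, not normalized, 10.1% to 12.2% of values not whole) and a gene length for 56980 genes. Libraries were made with a stranded mRNA kit per the labels (TruSeq in the study's methods) for Illumina sequencing. The submitters' processing notes name mm10, and the aligner, counting tool and annotation are not given in the sources used here. Gene positions are from GENCODE M21 (GRCm38, the assembly of mm10), which held all 58 members, and promoters from RefSeq on GRCm38.p6. Of the members, 9 share exonic positions with a gene on the opposite strand, each with at most 29 counts over all samples.

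Counts were rounded and tested with edgeR 4.0.16 in R 4.3.3 (filterByExpr, TMM factors, quasi-likelihood test with no term but group), and p-values were adjusted by Benjamini-Hochberg over 15190 genes. A call is an adjusted p-value under 0.05, and DEGs also have an absolute fold change of at least 2, the thresholds of the study. The standard error is the log2 fold change over the root of its F statistic. TPM were computed from the rounded counts and the deposited lengths. Alternatives were DESeq2 1.42.0, upper-quartile factors, library size only, no filter, a filter of 1 CPM in 3 samples, the replicate block, a test against a 2-fold change (glmTreat), and each sample left out in turn. The test code was tested on simulated data. All members may be named, and of each pathway list up to 3 genes in each direction with the smallest adjusted p-value, except where stated. The members and lists were chosen with earlier results of these data known.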

Additional observations from a re-analysis of the deposited data

How the results depend on the processing

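The counts of members past the test, of DEGs among them, of other pathway genes and of all genes stayed within 1.5 times of the reported values under DESeq2, both other scalings, both other filters and the replicate block, which left 6 higher and 10 lower members. Deviations of same-numbered samples correlated at 0.0247, -0.00167 and 0.0416, and not every sample correlated best with its own number. With 3 samples per group, a weak pairing would not show in these values. When edgeR tested against a 2-fold change itself, 0 upregulated and 2 downregulated members were left (22 members had an unadjusted p-value under 0.05 in the reported fit). With single samples left out, 3 to 7 members were higher and 8 to 16 lower, and 0 to 2 were upregulated and 5 to 7 downregulated DEGs. The 0 came without FMT-Ctrl replicate 1, where *Wnt4* and *Fzd6* were just under a 2-fold change, and 1 upregulated DEG was left without FMT-Ctrl replicate 2 and without FMT-Exer replicates 1 and 3. Other pathway genes numbered 12 to 45 higher and 16 to 33 lower, and all genes 1315 to 3417 higher and 1325 to 3041 lower. For these calls the highest counts came without FMT-Ctrl replicate 1 and the lowest without FMT-Exer replicate 2, and among members 3, 4 and 3 higher calls were left without FMT-Exer replicates 1, 2 and 3. The sign of the log2 fold change turned for *Fzd3* (range with single samples left out -0.32 to 0.073), *Ror2* (-0.24 to 0.076), *Lef1* (-0.46 to 0.082), *Ror1* (-0.24 to 0.049), *Lgr4* (-0.031 to 0.31) and *Sfrp2* (-0.24 to 0.31), and the turned value was past the threshold for *Sfrp2* only. The cause was not tested. Of the values of single members over the 12 alternatives that kept the test for any change, 420 kept direction and side of the threshold, 34 lost and 4 gained the call in the same direction, and 9 turned. Members with under about 10 counts per sample, among them *Wnt6*, *Wnt7b* and *Dkk2*, are limited by depth.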
